A study of Mus musculus with 8 samples.

Results

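Ppbp and 7 other genes known for platelets and megakaryocytes (Pf4, Itga2b, Gp9, Gp5, Treml1, Clec1b and F13a1) were followed across lymph node (LN) arrays of mice lacking the histamine H3 receptor and of wild-type mice. Probe sets annotated to a single gene were used, the brightest one on average standing for its gene, which left 12393 genes, of which these were 8. Each of the 8 genes had 1 probe set of its own, so none was chosen among several. The list was chosen by the signal of Ppbp, whose differences between H3RKO and WT LN after CFA and after CFA+PTX were already known. All values of Ppbp and its place against the other genes are therefore given as a description with no test, and the other 7 genes were tested in a fit over all probe sets.

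RNA came from LN of mice aged 8 weeks, of both sexes, in pools of at least 3 mice with 1 Affymetrix array per pool. H3RKO mice carried a whole-body null allele of Hrh3 (B6.129P2-Hrh3tm1Twl) on the C57Bl/6 background, and WT mice were C57Bl/6. H3RKO LN were measured untreated in 2 arrays, 24 h after complete Freund's adjuvant (CFA) in 1 array and 24 h after CFA with pertussis toxin (CFA+PTX) in 1 array, and WT LN were measured in the same way. The titles of both CFA+PTX arrays name only PTX, while their descriptions and the study's methods name both agents. By the methods WT mice were bought and H3RKO mice were kept in a colony of the university, so genotype and origin cannot be told apart. The comparison of genotypes asked whether loss of the receptor altered gene expression in LN at rest and early after the adjuvants.

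The 8 arrays had medians of 7.94 to 8.00 on the log2 scale. Hrh3 itself gave 7.20 to 7.29 log2 signal in the 4 H3RKO arrays and 6.56 to 6.66 in the 4 WT arrays. The probe set of the targeted gene thus read higher in the H3RKO LN. Its position relative to the deleted part was not known here, so it did not check the labels. By RT-PCR the study detected no Hrh3 mRNA in whole LN of naive mice, so what this signal reports is not known. Genes of T cells (9 of 12 on a list measured) and of B cells (10 of 11) had mean log2 signals of 11.04 to 11.31 and 10.94 to 11.29 across the arrays, both bright throughout. Pip, a secreted protein of exocrine glands, had 12.8 to 13.5 log2 signal in the H3RKO arrays. In WT LN it had 9.67 and 13.4 in the untreated arrays, 12.9 after CFA and 4.28 after CFA+PTX, so WT untreated 1 and WT CFA+PTX stood apart by this gene.

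Platelets are cell fragments shed by megakaryocytes, and their proteins and RNA are largely inherited from that cell. Ppbp and Pf4 are CXC chemokines stored in platelet alpha granules, and cleavage of the Ppbp protein gives a ligand of Cxcr2 that attracts neutrophils. Itga2b is the alpha chain of the fibrinogen receptor, Gp9 and Gp5 belong to the receptor for von Willebrand factor, Treml1 and Clec1b are surface receptors, and F13a1 is the clotting factor XIII subunit that crosslinks fibrin. In bulk LN RNA, fewer cells or platelets of a kind and less RNA in each cannot be told apart. Several of the 7 are also made outside platelets, such as Clec1b in myeloid cells and F13a1 and Pf4 in macrophages.

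Ppbp and Pf4 lie next to each other in a run of 7 protein-coding CXC chemokine genes on chromosome 5, in the order Cxcl5, Ppbp, Pf4, Cxcl3, Cxcl15, Cxcl1 and Cxcl2. Their promoters are shown because these neighbours had unlike patterns across the arrays. The windows reach from 250 bases before to 50 bases after the start and are taken from RefSeq on GRCm38.p6. Both are on the plus strand, at chr5:90768268-90768567 for Ppbp and chr5:90772185-90772484 for Pf4. Capitals mark the TATA box motif TATAAA, the GATA factor motif AGATAA, and ACTTCC, which is the ETS factor motif GGAAGT read on the other strand. All were searched on both strands and did not overlap.
Ppbp: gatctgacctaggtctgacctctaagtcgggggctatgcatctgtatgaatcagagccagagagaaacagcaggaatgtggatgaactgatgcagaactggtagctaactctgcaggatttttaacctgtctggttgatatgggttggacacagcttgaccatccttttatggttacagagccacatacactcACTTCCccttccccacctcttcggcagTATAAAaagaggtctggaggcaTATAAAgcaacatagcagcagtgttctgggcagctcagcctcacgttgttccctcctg
Pf4: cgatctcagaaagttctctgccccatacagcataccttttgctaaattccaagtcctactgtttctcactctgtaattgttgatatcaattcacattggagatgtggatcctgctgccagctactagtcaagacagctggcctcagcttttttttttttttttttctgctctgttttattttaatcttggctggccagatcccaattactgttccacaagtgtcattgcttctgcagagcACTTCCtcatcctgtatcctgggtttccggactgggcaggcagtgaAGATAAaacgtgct
The Ppbp window held TATAAA 2 times, 30 and 8 bases before the start, and GGAAGT on the reverse strand 57 bases before it. The Pf4 window held GGAAGT on the reverse strand 10 bases before the start and AGATAA 36 bases after it. Among 32851 mouse promoters of the same length TATAAA occurred in 13.6%, AGATAA in 11.2% and GGAAGT in 23.8%. All 8 genes were matched in the promoter table. TATAAA was found in Ppbp and Clec1b, AGATAA in Pf4, Clec1b and Gp5, and GGAAGT in the 6 genes Ppbp, Pf4, Gp9, Itga2b, F13a1 and Gp5. These matches describe letters only.

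Ppbp was the gene of the 8 whose signal varied most, over a range of 3.14 log2 units. In untreated LN it had 5.11 and 5.34 log2 signal in H3RKO and 4.65 and 4.63 in WT. After CFA it had 6.40 in H3RKO and 4.90 in WT, and after CFA+PTX it had 7.76 in H3RKO and 5.45 in WT. Within each treatment every H3RKO array was above every WT array, but over all treatments the genotypes overlapped, because WT CFA+PTX was above both untreated H3RKO arrays. The H3RKO minus WT difference was 0.59 in untreated LN, 1.50 after CFA and 2.31 after CFA+PTX on the log2 scale, which are 1.50, 2.82 and 4.96-fold. The study also measured Ppbp by quantitative RT-PCR after CFA+PTX in separate experiments. There Ppbp was higher in H3RKO LN, but the increase was not statistically significant.

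The same array values give the response within each genotype. H3RKO LN after CFA were 1.17 log2 units (2.25-fold) above the mean of the untreated H3RKO arrays, and H3RKO LN after CFA+PTX were 2.54 (5.82-fold) above it. WT LN after CFA were 0.26 (1.20-fold) above the mean of the untreated WT arrays, and after CFA+PTX they were 0.82 (1.76-fold) above it. In both genotypes the order was untreated, CFA, CFA+PTX. The steps were larger in H3RKO LN, with 1 array behind each treated value.

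The untreated difference of Ppbp, the only one with more than 1 array a group, was 0.59 ± 0.11 (SE, n = 2 arrays each), and leaving out each array in turn gave 0.47 to 0.70. It did not reach the threshold used by the study (fold change over 2 with an unadjusted p under 0.05), which 0.15% of all probe sets passed in untreated LN. That criterion was passed by 0.225% of probe sets after CFA and 0.362% after CFA+PTX. Of the 8 genes, 0, 1 and 1 passed it in untreated, CFA and CFA+PTX LN, and the 1 was Ppbp each time, in the comparisons for which it was chosen. The 4 probe sets shared by several adult globin genes, which report blood, lay higher in H3RKO LN in the same comparisons, by 0.44 to 0.54 in untreated LN, 0.04 to 0.24 after CFA and 1.22 to 1.55 after CFA+PTX, and the part of blood in the Ppbp values was not tested.

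**Figure D1:**
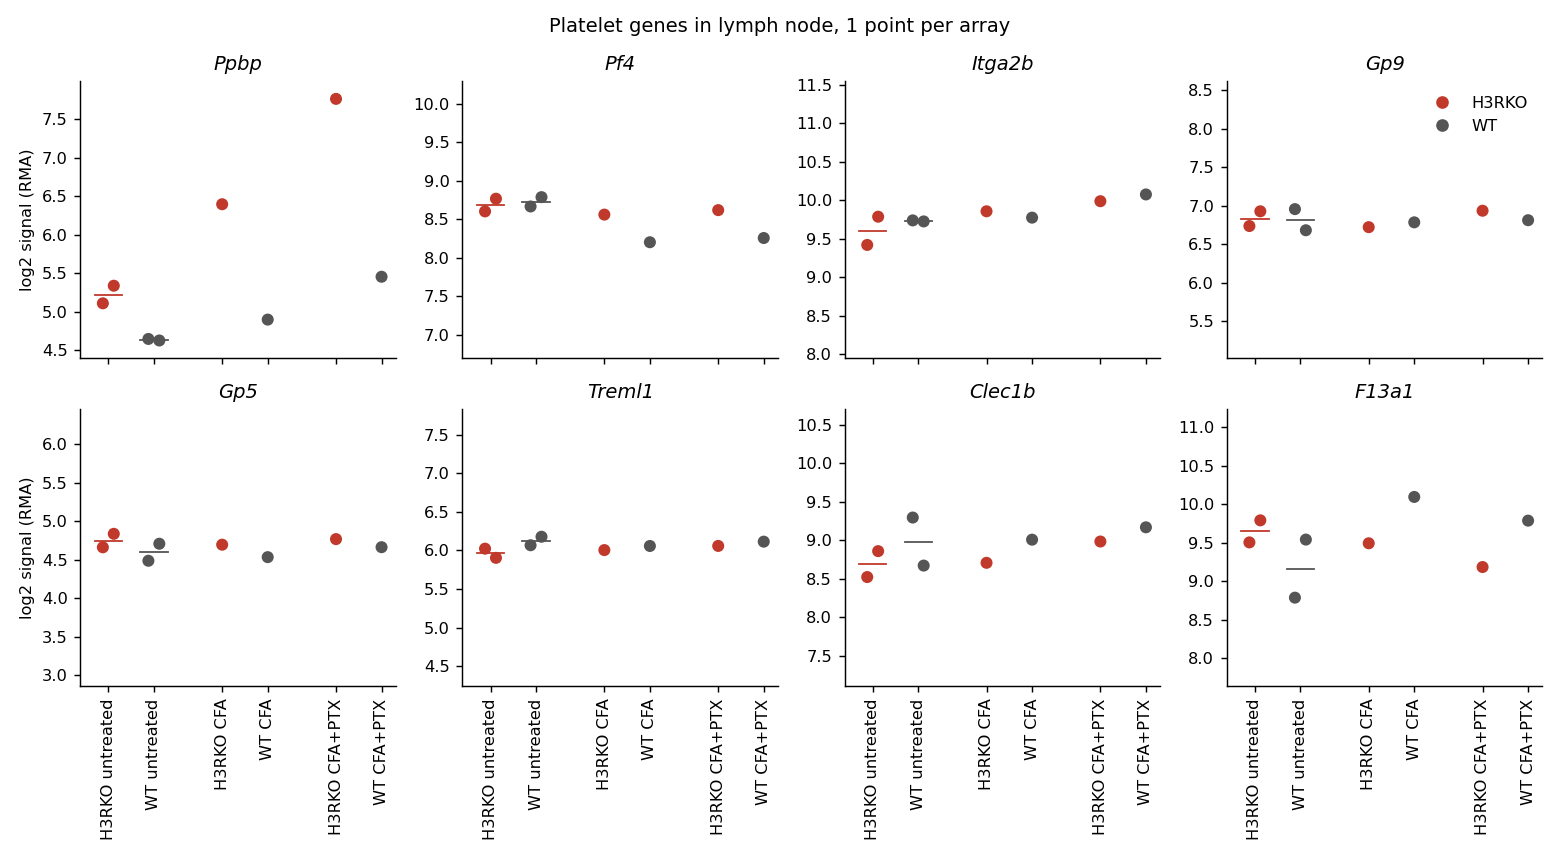
Log2 signal of the 8 platelet genes in each of the 8 LN arrays, 1 point per array, with lines at the means of the 2 untreated arrays of a genotype (H3RKO red, WT grey); every panel spans the same number of log2 units. Ppbp runs over 3.14 log2 units with H3RKO CFA+PTX highest at 7.76, while Gp9 runs over 0.27.

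Each gene was then set against its own mean over the 4 untreated arrays, so that levels of different probe sets were not compared. In the H3RKO CFA+PTX array Ppbp was 2.83 log2 units above its untreated mean, and the other 7 genes lay between -0.22 (F13a1) and 0.32 (Itga2b). In the H3RKO CFA array Ppbp was 1.47 above and the other 7 lay between -0.15 (Pf4) and 0.19 (Itga2b). The 7 genes thus stayed within a narrow band in the 2 arrays where Ppbp was highest.

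In the WT CFA+PTX array Ppbp was 0.52 above its untreated mean, with the other 7 between -0.45 (Pf4) and 0.41 (Itga2b). In the WT CFA array Ppbp was at -0.03, inside a range of -0.50 (Pf4) to 0.69 (F13a1). In untreated LN Ppbp was at 0.18 and 0.41 in H3RKO and at -0.28 and -0.30 in WT. Ppbp stood above all 7 other genes in 5 arrays, the 4 H3RKO arrays and WT CFA+PTX, and below all 7 in WT untreated 2.

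Taking the median of the other 7 genes away from Ppbp within each array gave 0.27 and 0.31 in untreated H3RKO LN and -0.31 and -0.36 in untreated WT LN. It gave 1.50 in H3RKO and -0.05 in WT after CFA, and 2.74 in H3RKO and 0.45 in WT after CFA+PTX. The H3RKO minus WT difference of this offset was 0.62 in untreated LN, 1.55 after CFA and 2.29 after CFA+PTX. These offsets were close to the differences of Ppbp alone (0.59, 1.50 and 2.31). The treated values rest on 1 array of each genotype, so their spread is not known.

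**Figure D2:**
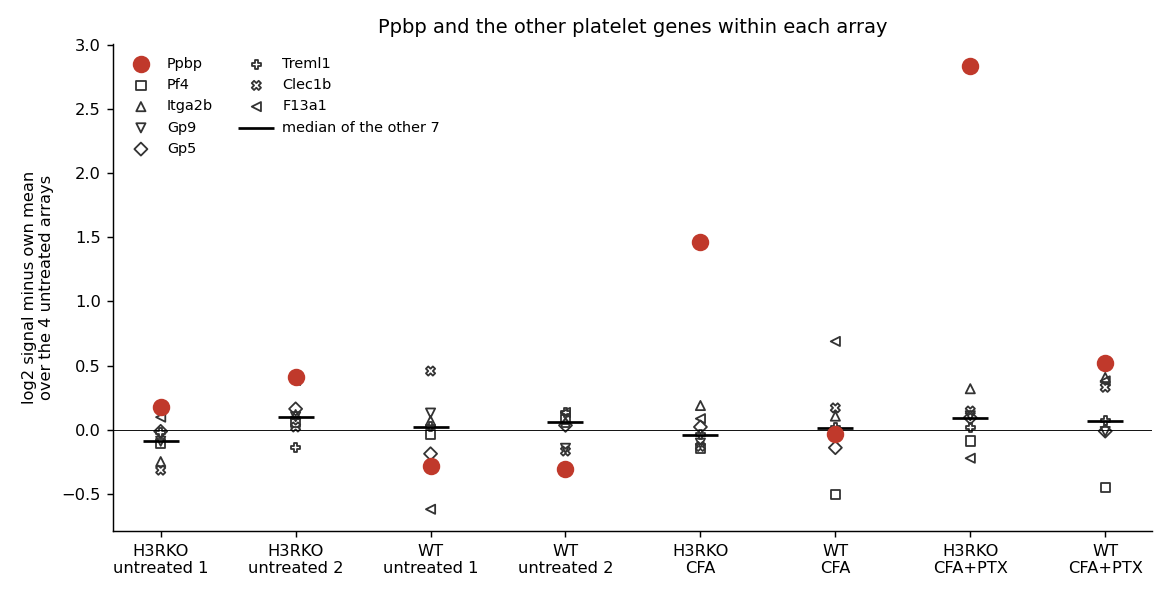
Deviation of each platelet gene from its own mean over the 4 untreated arrays, in log2 units, for each array; red circles are Ppbp, open symbols the other 7 genes and bars their median. Ppbp lies at 2.83 in H3RKO CFA+PTX and 1.47 in H3RKO CFA, and within or near the other genes in the remaining arrays.

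Pf4, the neighbouring alpha granule chemokine, had 8.60 and 8.76 log2 signal in untreated H3RKO LN and 8.66 and 8.78 in untreated WT LN. After CFA it had 8.56 in H3RKO and 8.20 in WT, and after CFA+PTX 8.62 in H3RKO and 8.25 in WT. The 2 treated WT arrays were the lowest of the 8. The H3RKO minus WT difference was -0.04 ± 0.10 in untreated LN, 0.36 ± 0.14 after CFA and 0.36 ± 0.14 after CFA+PTX (SE), the last with an unadjusted p of 0.0494 and an adjusted p = 1 by limma. It differed from the untreated difference by 0.40 ± 0.18 after either treatment (limma adjusted p = 0.886 for CFA and 1 for CFA+PTX). Over both genotypes Pf4 was at -0.32 ± 0.12 after CFA relative to untreated LN (limma unadjusted p = 0.0265, adjusted p = 0.768) and at -0.27 ± 0.12 after CFA+PTX (adjusted p = 0.416). Across the 8 arrays Pf4 and Ppbp had a Pearson r of 0.01.

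Itga2b, the integrin chain that marks platelets and megakaryocytes, had 9.42 and 9.79 in untreated H3RKO LN and 9.74 and 9.73 in untreated WT LN. After CFA it had 9.86 in H3RKO and 9.77 in WT, and after CFA+PTX 9.99 in H3RKO and 10.08 in WT. Both CFA+PTX arrays were above the other 6. The CFA+PTX minus untreated difference over both genotypes was 0.36 ± 0.11 (1.29-fold), with an unadjusted p of 0.0112 and an adjusted p = 0.278 by limma. Its genotype differences were -0.13 ± 0.14, 0.08 ± 0.19 and -0.09 ± 0.19 in untreated, CFA and CFA+PTX LN.

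The 2 subunits of the von Willebrand factor receptor varied little. Gp9 had 6.74, 6.93, 6.72 and 6.94 in H3RKO LN (both untreated arrays, CFA and CFA+PTX) and 6.96, 6.68, 6.78 and 6.81 in WT LN, so the genotypes overlapped throughout. Its genotype differences of 0.01 ± 0.13, -0.06 ± 0.18 and 0.12 ± 0.18 in untreated, CFA and CFA+PTX LN were within their errors. Gp5 had 4.66, 4.84, 4.70 and 4.77 in H3RKO LN and 4.49, 4.71, 4.53 and 4.66 in WT LN. Its genotype differences were 0.15 ± 0.12, 0.16 ± 0.17 and 0.10 ± 0.17. The Gp5 probe set was dim: only 12.9% of probe sets had a lower mean, against 21.6% for Ppbp, and how far either stood above background is not known.

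Among the surface receptors, Treml1, which is held in alpha granules and moves to the surface on activation, had 6.02, 5.90, 6.01 and 6.06 in H3RKO LN and 6.07, 6.18, 6.06 and 6.11 in WT LN. Its genotype differences were -0.16 ± 0.10, -0.05 ± 0.13 and -0.06 ± 0.13. Clec1b, the receptor for podoplanin on lymphatic and stromal cells, had 8.52, 8.86, 8.71 and 8.98 in H3RKO LN and 9.29, 8.67, 9.01 and 9.17 in WT LN. H3RKO LN averaged lower in each treatment, by differences of -0.29 ± 0.23, -0.30 ± 0.32 and -0.18 ± 0.32, but the 2 untreated WT arrays were farther apart than any of these. The difference over all treatments was -0.27 ± 0.14 (limma adjusted p = 0.999).

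F13a1, the factor XIII A subunit that macrophages also make, had 9.51 and 9.79 in untreated H3RKO LN and 8.79 and 9.54 in untreated WT LN. After CFA it had 9.49 in H3RKO and 10.10 in WT, and after CFA+PTX 9.19 in H3RKO and 9.79 in WT. The H3RKO minus WT difference was 0.48 ± 0.25 in untreated LN, -0.60 ± 0.36 after CFA and -0.60 ± 0.36 after CFA+PTX (limma adjusted p = 0.928, 1.00 and 1). The genotype difference thus had one sign at rest and the other after both treatments. The change of the genotype difference was -1.09 ± 0.44 after CFA (limma unadjusted p = 0.0523, adjusted p = 0.879) and -1.09 ± 0.44 after CFA+PTX (unadjusted p = 0.0522, adjusted p = 1.00).

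**Figure D3:**
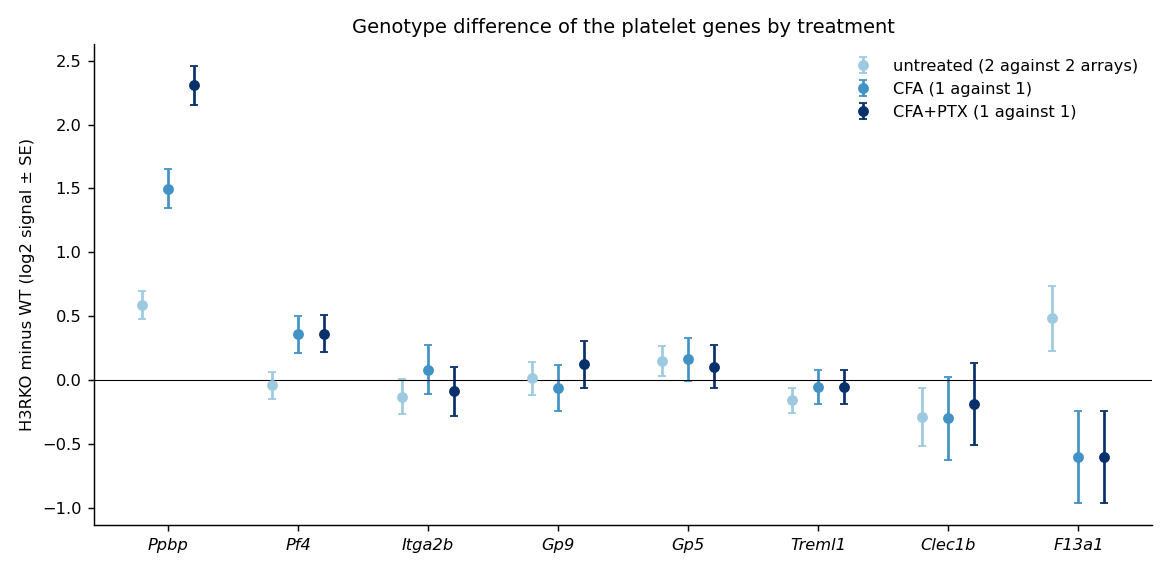
H3RKO minus WT difference in log2 signal of each platelet gene, with its standard error from the limma fit, in untreated (2 arrays against 2), CFA (1 against 1) and CFA+PTX LN (1 against 1). Ppbp is at 0.59, 1.50 and 2.31, and the other 7 genes lie between -0.60 and 0.48.

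The 7 genes other than Ppbp were also counted together. In untreated LN 3 had a positive and 4 a negative genotype difference, with a median of -0.04 beside -0.02 over all genes, and after CFA the counts were 3 and 4 with a median of -0.05 beside 0.04. After CFA+PTX they were again 3 and 4, with a median of -0.06 beside -0.03. No one direction was shared. Over all treatments, 0 of the 8 genes and 0% of all probe sets had a limma adjusted p under 0.05 for genotype, and 823 of 22626 probe sets had an unadjusted p under 0.05. For CFA against untreated LN the share was likewise 0% (1413 probe sets unadjusted), for CFA+PTX against untreated LN 0% (2783) and for CFA+PTX against CFA 0% (1238). None of the 7 genes passed.

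The 8 genes did not move as a unit across the arrays. Among the 7 genes without Ppbp the 21 pairs had a median Pearson r of 0.02, with Pf4 and F13a1 lowest at -0.53 and Gp9 and Clec1b highest at 0.69. Ppbp had a median r of 0.01 with the other 7, lowest for Treml1 (-0.20) and highest for Itga2b (0.51). These correlations are over 8 arrays that share 6 groups and describe these arrays only. The name platelet genes thus rests on what the genes are known for, and these arrays gave them no common pattern.

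A wider list of platelet and megakaryocyte genes was followed for the same question, with 54 of its 68 genes measured. None passed the study's criterion for the genotype difference in untreated, CFA or CFA+PTX LN (0 of 54 in each, and 2, 4 and 3 with an unadjusted p under 0.05 by limma). The median genotype difference was -0.03, 0.02 and -0.05, beside -0.02, 0.04 and -0.03 over all genes, and 19, 35 and 21 of the 54 were positive. These unadjusted counts were 3.70%, 7.41% and 5.56% of the list, beside 5.43%, 3.38% and 3.24% of all probe sets. By role, 15 of 18 receptors and adhesion molecules had medians of -0.00, 0.05 and -0.08, and 14 of 16 granule proteins had -0.04, 0.02 and -0.13. The 14 of 19 cytoskeleton and signalling genes had -0.04, 0.01 and 0.00, and 12 of 16 megakaryocyte regulators had -0.05, 0.01 and 0.10.

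Single receptors showed modest genotype differences. P2ry12, the platelet ADP receptor, had the largest difference of them after CFA+PTX, -0.64 ± 0.15, and Selp, the granule adhesion molecule that endothelium also makes, had the largest at rest, 0.43 ± 0.28 (limma adjusted p = 1 and 0.936). Fgg, the fibrinogen gamma chain, was at -0.64 ± 0.16 after CFA+PTX. Tbxas1, thromboxane synthase, was at -0.50 ± 0.19 in untreated LN and at 0.00 and -0.00 after the treatments. Among the transcription factors Fli1 was at -0.57 ± 0.12 after CFA, Runx1 was at 0.49 ± 0.21 in untreated LN, and Mef2c was at -0.42 ± 0.14 after CFA and 0.60 ± 0.14 after CFA+PTX. The lowest limma adjusted p among these was 0.916.

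Treatment differences in the wider list were led by Thbs1, thrombospondin, an alpha granule protein that many other cells also secrete. Thbs1 had 7.25 and 7.31 after CFA (H3RKO, WT) and 7.52 and 7.84 after CFA+PTX, against 8.08 and 8.55 in untreated H3RKO LN and 8.76 and 8.08 in untreated WT LN. All 4 treated arrays were below all 4 untreated arrays. The difference was -1.09 ± 0.20 for CFA against untreated LN (limma unadjusted p = 0.000858, adjusted p = 0.451) and -0.69 ± 0.20 for CFA+PTX (adjusted p = 0.274). Sparc, a matrix protein also held in alpha granules, was at -0.38 ± 0.09 and -0.34 ± 0.09 (adjusted p = 0.559 and 0.236). Neither passed the adjusted threshold, and the median over the 54 genes was -0.01 for CFA and 0.01 for CFA+PTX, beside 0.01 and 0.01 over all genes.

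The other CXC chemokines of the cluster did not follow Ppbp alike. Cxcl1, a neutrophil chemoattractant, had 7.49, 7.77, 8.16 and 8.49 in H3RKO LN (both untreated arrays, CFA and CFA+PTX) and 7.95, 7.33, 7.47 and 7.87 in WT LN. H3RKO CFA+PTX and H3RKO CFA were its 2 highest arrays, as for Ppbp, and the genotype difference was -0.01 ± 0.22, 0.69 ± 0.31 and 0.63 ± 0.31, short of the criterion each time. Cxcl5 had genotype differences of 0.40 ± 0.15, 0.31 ± 0.21 and 0.27 ± 0.21 and was at -0.47 ± 0.11 after CFA relative to untreated LN (limma adjusted p = 0.588). Cxcl2 had -0.29, -0.38 and 0.24 in untreated, CFA and CFA+PTX LN. Cxcl15, known as lungkine, went the other way at rest: it had 4.36 and 4.56 in untreated H3RKO LN and 5.25 and 6.28 in untreated WT LN, a difference of -1.30 ± 0.32 that passed the study's criterion with a limma adjusted p = 0.916. Cxcr2, the receptor of Cxcl1, Cxcl2, Cxcl5 and cleaved Ppbp, ran only over 0.08 log2 units in the 8 arrays. Cxcl3 had no probe set of its own here. The probe sets of Cxcl2, Cxcl5 and Cxcl15 were dim, with 8.87%, 9.98% and 15.6% of probe sets at a lower mean. How far these 3 stood above background is not known, so their differences may not reflect expression.

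The genes whose pattern was most like Ppbp were not platelet genes. Among 1270 genes with an SD of at least 0.2 over the 8 arrays, the 5 with the highest Pearson r with Ppbp were Mpo (0.93), Ctsg (0.93), Elane (0.88), Acot1 (0.86) and Cxcl1 (0.86), while Pf4 ranked 614. Mpo (myeloperoxidase), Ctsg (cathepsin G) and Elane (neutrophil elastase) are azurophil granule proteins that are transcribed mainly in neutrophil precursors, and Acot1 is a fatty acyl-CoA thioesterase. Without the H3RKO CFA+PTX array the r was 0.85 for Mpo, 0.92 for Ctsg, 0.42 for Elane, 0.31 for Acot1 and 0.70 for Cxcl1. Without both treated H3RKO arrays it was 0.66, 0.82, 0.08, -0.25 and 0.36 in the same order. The likeness of Elane and Acot1 thus lay mostly in 1 array, and that of Ctsg remained in the other arrays.

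Mpo had 5.55, 5.87, 6.08 and 7.82 log2 signal in H3RKO LN (both untreated arrays, CFA and CFA+PTX) and 5.59, 5.70, 5.75 and 5.89 in WT LN. Ctsg had 6.55, 6.49, 6.73 and 8.08 in H3RKO LN and 6.38, 6.45, 6.51 and 6.62 in WT LN. For both genes the H3RKO CFA+PTX array was far above the rest, and H3RKO CFA came next. Their genotype differences were 1.93 and 1.46 after CFA+PTX and 0.33 and 0.22 after CFA, where Ppbp was at 2.31 and 1.50. Both genes were picked for following Ppbp, which was itself chosen for these contrasts, so the differences are a description with no test.

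**Figure D4:**
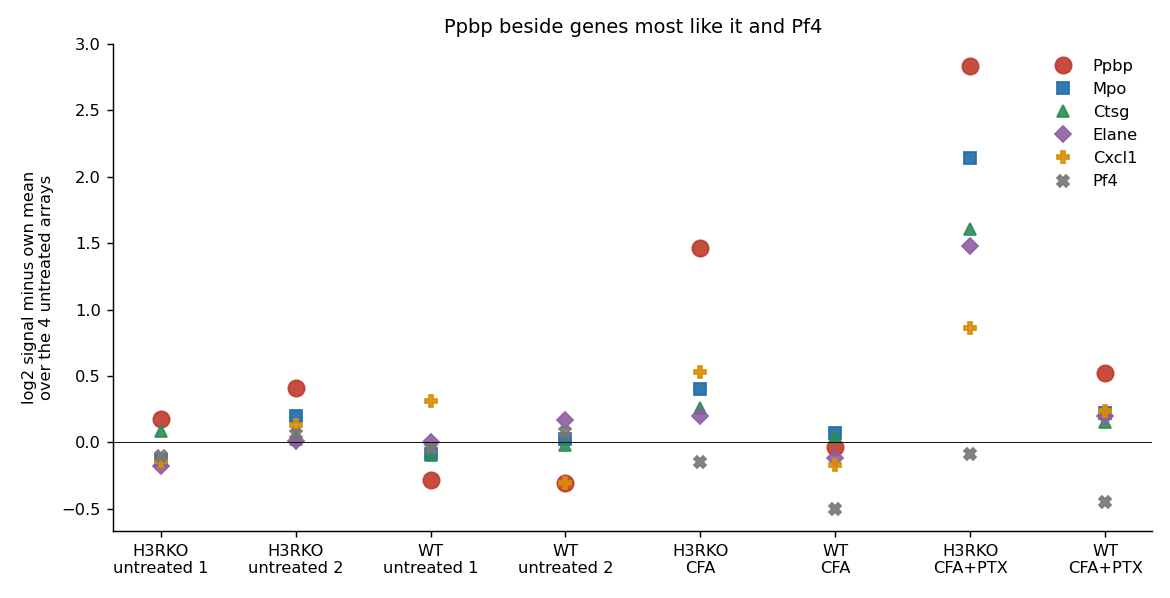
Deviation from the own mean over the 4 untreated arrays, in log2 units, of Ppbp, of 4 of the 5 genes most like it (Mpo, Ctsg, Elane and Cxcl1) and of its neighbour Pf4, by array. In H3RKO CFA+PTX Ppbp is at 2.83 and Pf4 is not raised, and in H3RKO CFA Ppbp is at 1.47 with Mpo, Ctsg and Elane well below it.

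Markers of other cell types that could carry Ppbp or the platelet genes were counted in the same arrays. The 4 azurophil granule genes Mpo, Elane, Prtn3 and Ctsg had a median deviation of 1.64 in H3RKO CFA+PTX and of -0.16 to 0.23 in the other 7 arrays. Of 22 measured neutrophil and myeloid precursor genes (of 28), 5 were higher in untreated H3RKO LN by the study's criterion (Chil3, Clec4d, Fpr2, S100a8 and S100a9). That criterion was passed by 0.15% of all probe sets in untreated LN. After CFA none of the 22 differed by more than 2-fold. After CFA+PTX Chil3, Ctsg, Elane, Ltf, Mpo, Ngp, Prtn3, S100a8 and S100a9 were more than 2-fold higher in H3RKO LN. Their differences ran from 1.18 (Ltf) to 1.93 (Mpo) log2 units. The share of all probe sets past a fold change of 2 alone was not counted, and that past the study's criterion is given above. The list was drawn up with earlier results of these data known, so these genes are a description. The median genotype difference of the 22 genes was 0.58 in untreated LN, 0.11 after CFA and 0.54 after CFA+PTX. Over all genes it was -0.02, 0.04 and -0.03. S100a8, a protein of mature neutrophils, had 10.94, 10.81, 10.18 and 11.09 in H3RKO LN and 9.19, 9.50, 10.01 and 9.60 in WT LN. By the medians of the 22 genes the genotypes were closest after CFA, with 1 array of each genotype. In that comparison Mpo, Elane, Ctsg and Prtn3 were at 0.33, 0.32, 0.22 and 0.08, and Ppbp was at 1.50. The part of these cells in the Ppbp values was not tested.

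Blood carried with the node was read from erythroid genes. The 13 of 19 with a probe set of their own were dim, with a mean log2 signal of 5.45 to 5.63 and a median deviation of -0.10 to 0.05 over the 8 arrays, and 0 passed the criterion for genotype in untreated, CFA or CFA+PTX LN. The bright adult globin probe sets are shared by several globin genes and so are not among the 13. One shared by Hba-a1 and Hba-a2 had 12.9, 13.1, 11.7 and 12.3 log2 signal in H3RKO LN (both untreated arrays, CFA and CFA+PTX) and 12.7, 12.3, 11.7 and 10.9 in WT LN.

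All 4 such probe sets were higher in H3RKO LN after CFA+PTX, by 1.22 to 1.55 log2 units, with 1 array of each genotype. These differences were 2.33 to 2.93-fold, above the 2-fold threshold of the study's criterion. In untreated LN the 4 were higher by 0.44 to 0.54 log2 units, below that threshold, so 0 of 4 passed the criterion. There all 4 probe sets had an unadjusted p under 0.05 by limma. Those for Hba-a1 and Hba-a2 read the same genes, so the 4 probe sets are not independent readings. Over both genotypes they were lower in treated LN, by differences of -1.12 to -0.93 for CFA and -1.26 to -1.11 for CFA+PTX against untreated LN. The genotypes thus differed in globin signal after CFA+PTX, with WT CFA+PTX the lowest array of the 8, and were close after CFA. The H3RKO CFA+PTX array, where Ppbp was highest, had globin signal below both untreated H3RKO arrays and above WT CFA+PTX. The part of blood in the values of Ppbp, Pf4 and Thbs1 was not tested. These globin probe sets were looked up after the lists had been counted.

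Of 21 monocyte and macrophage genes (of 23) 1, Vcan, was higher in untreated H3RKO LN by the criterion, and the medians were -0.05, -0.14 and -0.25 in untreated, CFA and CFA+PTX LN. All 17 endothelial genes were measured and 0 passed, with medians of -0.07, -0.10 and -0.24. Over all genes the medians were -0.02, 0.04 and -0.03. The part of these cells in the values of Ppbp, F13a1, Clec1b and Pf4 was not tested.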

How the data were processed

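The authors hybridized the LN RNA pools to Affymetrix arrays of 1 colour, and by the methods RMA, run in Partek, gave 1 value per probe set after background correction and normalization. The deposited values are log2 signals and were used as deposited. Such arrays have no read depth, and their number (8) limits the precision. Of 22690 probe sets, 64 controls were left out and 22626 tested. By the annotation 20380 named 1 gene, 691 several and 1555 none.

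limma 3.58.1 (R 4.3.3) was fitted to all probe sets with a mean for each of 6 groups, with 2 residual degrees of freedom (3.58 prior), for the genotype differences, and with genotype and treatment as terms, with 4 (3.28 prior), for the others. The treated groups had 1 array each, so the spread came from the untreated pairs, and a lone array was assumed to vary like them. P-values were adjusted by Benjamini-Hochberg over all probe sets. By the study's criterion 1228, 765 and 732 probe sets had an unadjusted p under 0.05 in untreated, CFA and CFA+PTX LN before the fold threshold of 2. Pools are the replicates, so p-values measure the spread between pools. The fit was tested on simulated data with 200 changed probe sets.

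Members, gene lists and tests were chosen with earlier results of these data known. Named were the 8 genes, the 5 most like Ppbp, the 5 most like the mean of the other 7, and from each list the genes past the criterion or, at most 4, with the largest differences. Descriptions used Python 3.11.15, pandas 2.3.3 and numpy 2.4.6, and figures matplotlib 3.10.9. Promoters came from RefSeq (GRCm38.p6). Alternatives were quantile normalization, centring on array medians, limma with trend, limma without moderation and a replicate block. Further alternatives were only probe sets with a mean log2 signal over 6, and leaving out each array.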

Additional observations from a re-analysis of the deposited data

Results flagged for a closer look

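The genotype difference of F13a1 had opposite signs at rest and after treatment. The difference after treatment minus that in untreated LN was -1.09 log2 units for CFA and -1.09 for CFA+PTX. F13a1 stood out because both treated H3RKO arrays (9.49 and 9.19) were below both untreated H3RKO arrays (9.51 and 9.79), while both treated WT arrays (10.10 and 9.79) were above both untreated WT arrays (8.79 and 9.54). The difference itself was tested with limma and had an adjusted p = 0.879 for CFA and 1.00 for CFA+PTX. Over all probe sets this test gave 0 at an adjusted p under 0.05 for either treatment, and 1295 and 645 at an unadjusted p under 0.05. Both values use the same untreated arrays, and WT untreated 1 was the lowest array of the 8. Without it both values were -0.71.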

How the results depend on the processing

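The filter to probe sets with a mean log2 signal over 6 left out Ppbp and Gp5. Under the other settings Ppbp was the gene past the study's criterion after CFA and after CFA+PTX. Ppbp was chosen by these comparisons, so this lends it no support. No setting brought another of the 8 genes past it. Leaving out 1 array, the offset of Ppbp from the other 7 genes between genotypes ran from 0.57 to 0.67 in untreated LN, 1.55 to 1.56 after CFA and 2.21 to 2.36 after CFA+PTX. Lone treated arrays could not be left out of their own comparison.

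Of the other values by gene, 547 kept their direction and call and 19 changed sign, all uncalled, the largest of them at -0.28. Centring on array medians gave -0.0062 for Gp9 in untreated LN and 0.013 for Treml1 after CFA. Leaving out 1 array, the genotype difference in untreated LN ran from -0.60 to 0.019 for Clec1b, -0.12 to 0.15 for Gp9, -0.31 to 0.054 for Itga2b and -0.12 to 0.040 for Pf4. The CFA difference from untreated LN ran from -0.10 to 0.15 for Clec1b and -0.048 to 0.024 for Treml1, and that of CFA+PTX from -0.28 to 0.44 for F13a1, -0.0037 to 0.085 for Gp5 and -0.019 to 0.12 for Gp9. The cause was not tested. The change of the F13a1 genotype difference ran from -1.46 to -0.71 for either treatment, its size resting on WT untreated 1 and 2. Averaging over the probe sets of a gene was not run, since each gene had 1.

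The replicate numbers of the untreated arrays shared only a number (r = 0.12 between the genotypes' replicate deviations). With the replicate block, again 0 of the 8 genes passed the criterion in untreated LN. The block had no term for the treated arrays, so it could not alter their differences. Detection calls were not used here, so how far the dim probe sets of Gp5 and of Ppbp at rest stood above background is not known.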

Other observations

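The genes most like the mean deviation of the 7 platelet genes without Ppbp were Cemip2 (r = 0.87), Zbtb20 (0.85), Ctnnd1 (0.84), Sntb2 (0.84) and Fgf10 (0.84) over the 8 arrays. None of the 5 is among the genes most like Ppbp. Fos, an immediate early transcription factor, ranked 6 by its likeness to Ppbp and Ms4a3, a gene of granulocyte and monocyte precursors, ranked 7. Fos had 10.06, 9.99, 9.89 and 11.35 log2 signal in H3RKO LN (both untreated arrays, CFA and CFA+PTX) and 9.60, 9.86, 9.84 and 10.32 in WT LN, so both CFA+PTX arrays were its highest.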
